A study of Mus musculus with 5 samples.

Results

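The genes described here are 34 mouse genes that type I interferon is known to induce and that act against viruses, followed across 5 Affymetrix arrays of CD4 T cells. A gene was measured when the array annotation gave at least 1 probe set its symbol and no other. By that rule 32 of the 34 genes were measured, through 53 probe sets, of 18193 genes and 45037 probe sets in all. Isg15 and Ifi44 had no such probe set in the annotation used and were not analysed here. The 5 groups had 1 array each: effector Th1 cells treated with TOFA, effector cells labelled Rap, memory Th1 cells, control effector Th1 cells and naive CD4 T cells. All came from the spleen of BALB/c mice, and no age or number of animals was stated for them. The labels attach the same protocol to all 5 samples, naive and memory included: Th1 culture for 5 days with IL-2 at 15 ng/ml and IL-12 at 10 ng/ml. TOFA blocks acetyl-CoA carboxylase, the enzyme that starts fatty acid synthesis; the labels do not expand Rap, and give no dose of either agent. The title of the series concerns this enzyme and the memory potential of CD4 T cells, and the design text names the characterisation of TOFA-treated cells as the purpose.

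Type I interferons are secreted when cells sense foreign nucleic acid. They bind a receptor made of IFNAR1 and IFNAR2, whose kinases JAK1 and TYK2 activate a complex that contains STAT2 and IRF9. This complex binds the interferon stimulated response element in gene promoters and switches on many antiviral genes together, including sensors of viral RNA, proteins that block viral entry, replication or release, and inhibitors that end the signal. In T cells the same genes also keep a low level in the absence of infection, and type II interferon, IFN-γ, the cytokine of Th1 cells, can induce part of them.

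Values are quantile-normalised signals in arbitrary units; levels of different probe sets are not comparable with each other. A signal under 43.38, the 40th percentile, was taken as the floor. A difference against an array at the floor is a bound, and genes at the floor on both arrays were not compared. With 1 array per group no test of any difference was possible, so genes are described by a difference of at least 2-fold and set beside the share of all genes that reached it. Of the 32 genes, 27 were above the floor on all 5 arrays. In bulk RNA, fewer cells of a type and less RNA per cell cannot be told apart.

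The memory array stood apart in its markers. The 10 macrophage and monocyte markers summed to 86205 in memory cells, against 319.1 to 1484 on the other 4 arrays, and 9 of 10 were at least 2-fold higher in memory than in naive cells. B cell markers (8 genes) summed to 60883 in memory and 32991 in naive cells, against 2025 to 2695 in the 3 effector arrays. Conventional dendritic cell markers (7 genes) summed to 12629 in memory cells, of which H2-Ab1 gave 10952, and to 763.8 to 1860 elsewhere. Plasmacytoid dendritic cell markers, from a cell type known for type I interferon secretion, summed to 4064 in memory cells and 751.8 to 1946 elsewhere. Tcf4 (1587) and Spib (1732) were the largest parts of that memory sum. Against naive cells, 2 plasmacytoid markers were at least 2-fold higher in memory cells (Tcf4 and Spib) and 2 lower (Ccr9 and Pacsin1). The median log2 difference of this list was 0.02. The 7 CD4 T cell markers measured were above the floor on all 5 arrays, with Cd4 at 536.0 in TOFA, 524.8 in Rap, 483.1 in memory, 628.0 in control effector and 896.9 in naive cells. Every memory and naive value below stands beside these markers, and the part of the other cells in them was not tested. Of the 10 macrophage and monocyte markers, 5 were above the floor in TOFA, 3 in Rap and 3 in control effector cells. Those above it in TOFA effector cells read from 44.61 (Adgre1) to 154.7 (Mpeg1), while C1qa, a complement gene of macrophages, read 1.849 in TOFA, 2.612 in Rap and 2.524 in control effector cells. The deposited array medians lay between 63.05 and 99.49, the highest being that of the memory array.

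**Figure D1:**
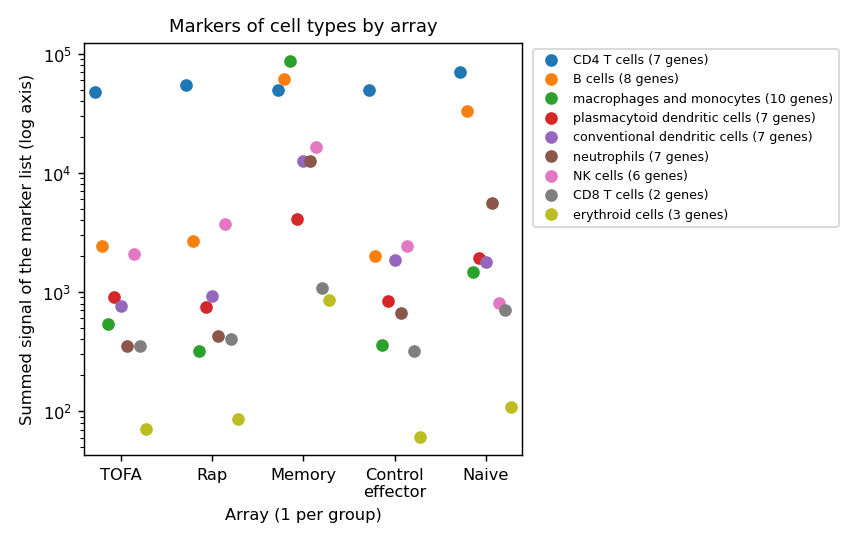
Summed signal (arbitrary units, log axis) of the marker genes of 9 cell types on each of the 5 arrays; each point is 1 list on 1 array, and points are offset sideways for legibility. The macrophage list stands at 86205 on the memory array and at no more than 1484 on the others, while the CD4 T cell list stays between 47377 and 70781.

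The promoters of the genes were searched for the element that the pathway is known to act through. RefSeq promoter windows (build GRCm38.p6, from 250 bases before to 50 bases after the gene's start) were found for 24 of the 34 genes. Both strands were searched for the core of the interferon stimulated response element, GAAA followed by any 2 bases and GAAA. It was in 12 of 24 windows (50%), against 3.99% of 27025 genes. The stretches below, written 5′ to 3′ on the gene's own strand with the element in capitals, were chosen because they belong to genes whose signals the text below turns on.
Ifit1, chr19:34640760-34640838, plus strand: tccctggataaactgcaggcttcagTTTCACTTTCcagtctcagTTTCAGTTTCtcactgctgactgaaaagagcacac
Ifit3, chr19:34583348-34583441, plus strand: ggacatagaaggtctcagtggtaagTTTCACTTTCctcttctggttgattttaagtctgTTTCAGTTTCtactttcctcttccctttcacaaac
Bst2, chr8:71537562-71537627, minus strand: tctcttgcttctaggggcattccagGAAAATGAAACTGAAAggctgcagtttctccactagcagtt
Rsad2, chr12:26456538-26456597, minus strand: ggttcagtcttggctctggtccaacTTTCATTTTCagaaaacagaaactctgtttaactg
Oas3, chr5:120777700-120777759, minus strand: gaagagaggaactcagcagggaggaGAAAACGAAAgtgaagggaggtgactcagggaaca
Oas1a, chr5:120907526-120907570, minus strand: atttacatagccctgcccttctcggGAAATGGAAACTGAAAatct
In Ifit1, Ifit3 and Rsad2 the element reads on the opposite strand, as TTTC, 2 bases and TTTC, while in Bst2, Oas3 and Oas1a it reads on the gene's own strand. Bst2 and Oas1a each hold 2 overlapping copies, and Ifit1 and Ifit3 2 separate copies. The gamma activated site of IFN-γ signalling, TTCNNNGAA on either strand, was in 6 of 24 windows (25%), against 9.55% of all genes, and in Bst2 it overlapped the response element. A match describes letters only, and no binding was measured here.

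Across the 5 arrays the antiviral genes were most often highest in TOFA effector cells and lowest in control effector cells. The TOFA array was the highest of the 5 for 15 of the 32 genes (46.9%), against 16.9% of the 14406 genes above the floor on at least 1 array. The memory array was highest for 8 (25%, against 22.0% of all genes), near its share. The Rap array was highest for 4 (12.5%, against 16.0%), the naive array for 4 (12.5%, against 25.4%) and the control effector array for Dhx58 alone (3.12%, against 19.6%). The control effector array was the lowest for 18 genes (56.2%), against 14.6% of all genes, and the TOFA array was the lowest for none of them. Among the 3 effector arrays, 20 of the 31 genes that could be ordered ran TOFA above Rap above control effector, against 15.2% of all genes. This order counts differences of any size, such as Rsad2 with 65.69 in Rap and 63.47 in control effector cells. For Rsad2, Ifi35, Xaf1 and Parp14, all among the 20, at least 1 other probe set read higher in Rap than in TOFA effector cells. For Ddx58 and Cmpk2, at least 1 read higher in control effector than in Rap effector cells.

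**Figure D2:**
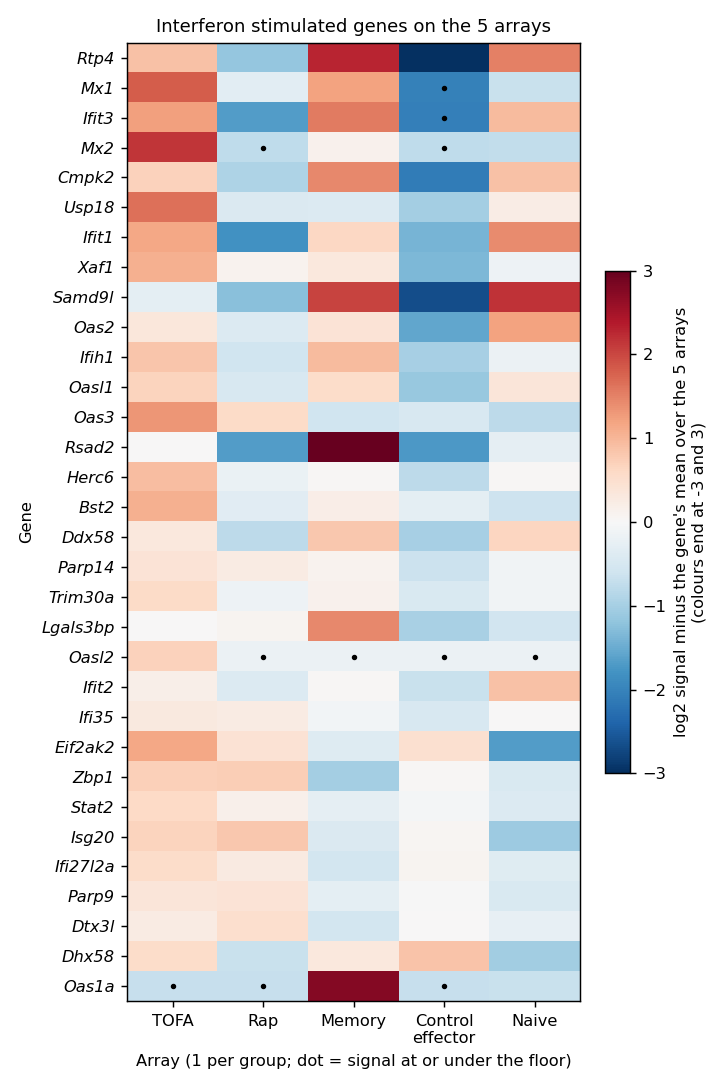
Quantile-normalised log2 signal of each of the 32 measured genes on the 5 arrays, each gene centred on its own mean over the arrays. The TOFA column is the highest for 15 genes and the control effector column the lowest for 18.

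TOFA effector cells had higher signals of most antiviral genes than control effector cells. Of 31 genes compared, 20 had a signal 2-fold or more higher in TOFA effector cells and 0 at least 2-fold lower, while 2.47% of all 12850 genes compared were higher by that much and 2.14% lower. The median of the 31 was 1.37 on the log2 scale (2.58-fold), against 0.01 over all genes, and 30 of 31 differences were above 0. Of the 31, 10 were among the 50 genes furthest higher on the TOFA array, and 15 among the first 100. Other probe sets of the same genes gave the same direction in 19 of 20 cases, the exception being 1 of Dhx58.

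Rtp4, an interferon-induced receptor transporter protein, had the largest difference of all 12850 genes with the floor as set here, under which genes dimmer in control effector cells, Mx1, Mx2 and Ifit3 among them, have bounds only and cannot be ranked against it. It had a signal of 1641 in TOFA effector cells, against 78.10 in control effector cells, a 21.0-fold difference. The control effector signal lay close above the floor, and under the 6 alternatives the log2 difference of 4.39 ranged from 2.77 to 4.53. A second, dim Rtp4 probe set read 53.25 in TOFA and 3.326 in control effector cells, which lies under the floor.

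Mx1 and Mx2, dynamin-like GTPases of the antiviral response, had bounds. Mx1 read 622.7 in TOFA effector cells and 41.33, under the floor, in control effector cells, at least 14.4-fold higher in TOFA effector cells (log2 2.05 to 3.91 under the alternatives). Most inbred mouse strains, BALB/c among them, are known to carry a defective Mx1 allele, and the array reads its transcript only. Mx2 read 327.5 in TOFA and 10.82 in control effector cells, at least 7.55-fold higher in TOFA effector cells (log2 1.12 to 4.57 under the alternatives).

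The IFIT proteins act against viral RNA and its translation. Ifit3 read 424.1 in TOFA and 12.64 in control effector cells, at least 9.78-fold higher in TOFA effector cells (log2 1.49 to 4.95 under the alternatives). Ifit1 read 478.8 in TOFA and 81.43 in control effector cells (5.88-fold). Ifit2, their neighbour on chromosome 19, read 1249 in TOFA and 703.8 in control effector cells and stayed under 2-fold (1.78-fold).

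Rsad2 encodes viperin, which makes a nucleotide that ends viral RNA chains, and Cmpk2, its neighbour on chromosome 12, encodes a nucleotide kinase. Cmpk2 read 318.3 in TOFA and 45.78 in control effector cells (6.95-fold). Rsad2 read 210.5 in TOFA and 63.47 in control effector cells (3.32-fold). Both were past 2-fold on the TOFA array, but under the alternatives the log2 difference ranged from 1.08 to 2.80 for Cmpk2 and from 0.48 to 1.73 for Rsad2, whose other 2 probe sets gave 0.18 and 0.79.

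Usp18, a protease that removes ISG15 from proteins and also restrains the interferon receptor, read 2382 in TOFA and 370.2 in control effector cells (6.44-fold). Herc6, the ligase that attaches ISG15 in mice, read 2582 in TOFA and 791.1 in control effector cells (3.26-fold). Stat2, the transcription factor of the pathway, read 391.7 in TOFA and 247.4 in control effector cells (1.58-fold). The 2 genes of ISG15 conjugation and removal were past the limit and the transcription factor was not.

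The OAS enzymes sense double-stranded RNA and activate a ribonuclease; the OAS-like proteins are relatives of theirs. Oas2 read 193.7 in TOFA and 51.93 in control effector cells (3.73-fold), and Oas3 read 368.0 in TOFA and 105.7 in control effector cells (3.48-fold). Oasl1 read 251.1 in TOFA and 71.71 in control effector cells (3.50-fold). Under the alternatives the log2 difference ranged from 0.36 to 1.90 for Oas2 and from 0.74 to 1.81 for Oasl1, so that both lost the 2-fold call in a setting. Oasl2 was above the floor in TOFA effector cells alone, at 78.97, against 6.011 in control effector cells (at least 1.82-fold), and Oas1a was under the floor on all 3 effector arrays.

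Of the RNA sensors, 2 were past 2-fold. Ifih1, which encodes MDA5, read 1938 in TOFA and 542.0 in control effector cells (3.58-fold). Ddx58, which encodes RIG-I, read 1106 in TOFA and 446.6 in control effector cells (2.48-fold). Dhx58, which encodes their regulator LGP2, was the 1 gene of the 31 with a lower signal on the TOFA array, 649.1 against 795.8 in control effector cells (log2 difference -0.29). Its direction was not settled, since the difference ran from -0.31 to 0.30 under the alternatives, and it lay within the 10th and 90th percentiles of all genes, -0.52 and 0.54. Zbp1, a sensor of Z-form nucleic acid, read 2428 in TOFA and 1518 in control effector cells (1.60-fold). Its other probe set was past 2-fold, with 2151 in TOFA and 845.6 in control effector cells (log2 difference 1.35). Eif2ak2, the kinase PKR, read 775.5 in TOFA and 481.5 in control effector cells (1.61-fold).

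Of the other effectors, Xaf1, a promoter of apoptosis, read 6100 in TOFA and 1141 in control effector cells (5.34-fold). Samd9l, a restriction factor of poxviruses, read 1329 in TOFA and 255.7 in control effector cells (5.20-fold). Bst2, the tetherin that holds budding virions at the cell surface, read 2864 in TOFA and 1108 in control effector cells (2.58-fold). These 3 genes were past the limit with control effector signals well above the floor.

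Just past the 2-fold limit in TOFA effector cells were 3 genes: Parp14 (2.09-fold), an ADP-ribosyltransferase, Trim30a (2.02-fold), a regulator of signalling by TLRs, and Lgals3bp (2.002-fold), a secreted glycoprotein. The genes under it, besides those named above, were Ifi35 (1.70-fold), Isg20 (1.53-fold), an exonuclease, Ifi27l2a (1.38-fold), Parp9 (1.31-fold) and Dtx3l (1.17-fold). Ifi27l2a and Ifi35 were bright on every array, with signals of 9536 to 20437 and 6060 to 10302.

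Signals of macrophage markers were low on both arrays of this comparison, summing to 542.9 in TOFA and 362.5 in control effector cells. One of the 10, Mpeg1, was at least 2-fold higher, with 154.7 in TOFA and 7.467 in control effector cells. Plasmacytoid dendritic cell markers summed to 914.9 in TOFA and 837.5 in control effector cells. One of those compared, Cox6a2, was at least 2-fold higher, with 371.5 in TOFA and 148.0 in control effector cells, while Klk1 and Pacsin1 had log2 differences of -0.80 and -0.89. The part of such cells in the antiviral genes was not tested.

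Rap effector cells had higher signals of fewer antiviral genes. Of 29 genes compared with control effector cells, 8 were at least 2-fold higher and 1 at least 2-fold lower, while 1.79% of all 12839 genes compared were higher and 3.91% lower. The median of the 29 was 0.59 on the log2 scale (1.502-fold), against 0.00 over all genes, and 25 were above 0. The 8 were Rtp4, Mx1, Xaf1, Samd9l, Cmpk2, Oas2, Oas3 and Lgals3bp. With the floor at the 60th percentile the count was 4 of 22 genes, beside 0.772% of all genes. With a constant added to every signal in place of the floor it was 4 of 32, beside 1% of all genes.

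Rtp4 was again the furthest of the antiviral genes, with 400.5 in Rap effector cells against 78.10 in control effector cells (5.13-fold). Mx1 read 142.5 in Rap and 41.33 in control effector cells, at least 3.29-fold higher in Rap effector cells. Xaf1 read 3124 in Rap and 1141 in control effector cells (2.74-fold), and Samd9l read 685.8 in Rap and 255.7 in control effector cells (2.68-fold). Rtp4, Xaf1 and Samd9l were past 2-fold under each of the 6 other settings tried.

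Of the genes past 2-fold in TOFA effector cells, Ifit1, Rsad2 and Bst2 were near control effector levels in Rap effector cells. Ifit1 read 61.17 in Rap and 81.43 in control effector cells (log2 difference -0.41), and Rsad2 read 65.69 in Rap and 63.47 in control effector cells (0.05). Bst2 read 1073 in Rap and 1108 in control effector cells (-0.05). Usp18 read 557.3 in Rap and 370.2 in control effector cells (1.51-fold). Mx2 was under the floor on both arrays, at 17.00 in Rap and 10.82 in control effector cells.

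Dhx58 was the 1 gene lower by the limit: it read 279.1 in Rap effector cells and 795.8 in control effector cells (log2 difference -1.51). Another, dim Dhx58 probe set gave 0.72. Other probe sets of the antiviral genes gave the same direction in 13 of 18 cases, the exceptions being those of Ddx58, Dhx58, Cmpk2 and 2 of Eif2ak2. Among the 3 effector arrays 5 of 31 genes were highest on the Rap array, fewer than the 32.2% of all genes: Dtx3l, Parp9, Isg20, Zbp1 and Lgals3bp. Dtx3l and Parp9, neighbours on chromosome 16 whose proteins form an ubiquitin ligase complex, read 4674 and 4977 in Rap effector cells against 3322 and 3681 in control effector cells. Isg20 read 2650.1 in Rap and 1581 in control effector cells (1.68-fold). All 5 differed from their TOFA signals by no more than 0.27 on the log2 scale. The place of Zbp1 was not settled, since its other probe set read 2151 in TOFA and 1591 in Rap effector cells.

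**Figure D3:**
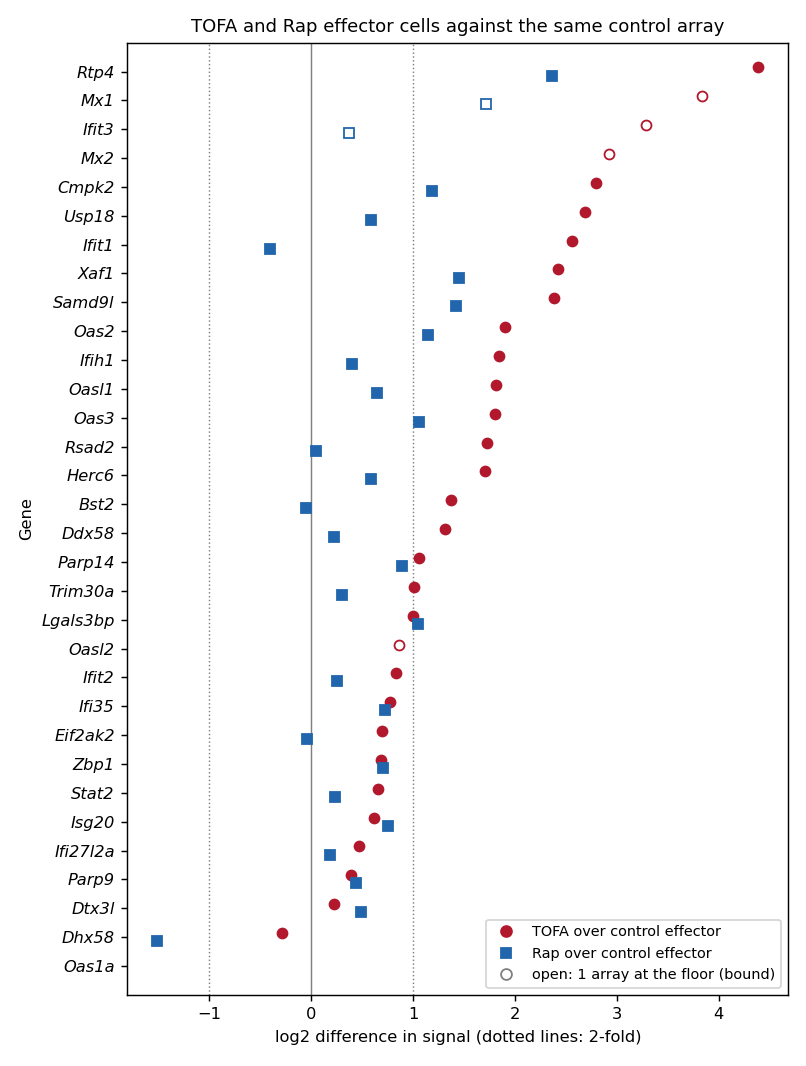
Log2 difference in signal of each gene in TOFA effector cells and in Rap effector cells, each against the same control effector array; open symbols are bounds against an array at the floor, and dotted lines mark 2-fold. In TOFA effector cells 20 genes lie past 2-fold on the higher side, and in Rap effector cells 8.

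The comparisons of TOFA and of Rap with control effector cells share the control effector array, so that any error in it enters both. The direct comparison of the TOFA and Rap arrays does not use it. Of 31 genes compared, 14 were higher by 2-fold or more in TOFA than in Rap effector cells and 0 at least 2-fold lower, while 3.25% of all 12783 genes compared were higher and 1.35% lower. The median of the 31 was 0.95 on the log2 scale, against 0.02 over all genes, and 6 of them were among the 50 genes furthest higher in TOFA effector cells.

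With the floor as set here, Ifit1, Ifit3 and Mx2 stood furthest apart, in no settled order since Mx2 has a bound. Their lowest log2 differences under the alternatives were 1.67, 1.49 and 1.12, against 2.01 for Usp18 and 1.84 for Mx1. Their place ahead of Usp18 and Mx1 was thus not settled either. Ifit1 had 478.8 in TOFA and 61.17 in Rap effector cells (7.83-fold), and Ifit3 had 424.1 in TOFA and 56.15 in Rap effector cells (7.55-fold). Mx2 read 327.5 in TOFA and 17.00 in Rap effector cells, at least 7.55-fold higher in TOFA effector cells. Mx1 (4.37-fold), Usp18 (4.28-fold) and Rtp4 (4.10-fold) followed with that floor. Rsad2 (3.20-fold), Cmpk2 (3.06-fold), Ifih1 (2.72-fold), Bst2 (2.67-fold), Dhx58 (2.33-fold), Oasl1 (2.23-fold), Herc6 (2.17-fold) and Ddx58 (2.13-fold) made up the 14. Of the 14, Oasl1, Rsad2 and Herc6 lost the 2-fold call in a setting, with lowest log2 differences of 0.74, 0.48 and 0.96. The 5 genes below 0 were Dtx3l, Isg20, Lgals3bp, Parp9 and Zbp1, with log2 differences from -0.27 to -0.02. Other probe sets gave the same direction in 14 of 21 cases, against 19 of 20 for TOFA over control effector cells. The exceptions were probe sets of Rsad2, Ifi35, Dhx58, Xaf1, Zbp1 and Parp14. The other Rsad2 probe sets gave log2 differences of -0.59 and 0.79, and the other Dhx58 probe sets -0.72 and 0.48.

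The differences between TOFA and Rap effector cells were also described by the genes' place on the other 3 arrays. Of 21 genes with control effector signals below both naive and memory signals, 20 could be compared, 12 were at least 2-fold higher in TOFA than in Rap effector cells, and the median log2 difference was 1.14 (-0.05 to 2.97). Of 9 genes with control effector signals above both, 1 was at least 2-fold higher in TOFA effector cells, Dhx58, and the median was 0.29 (-0.27 to 1.22). The other Dhx58 probe sets went both ways. Of the 14406 genes above the floor on at least 1 array, 30.4% had control effector signals below both and 38.3% above both. How far all genes of these classes differed between TOFA and Rap effector cells was not tested. This is a description of 1 array per group, and the split was chosen with these data known.

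**Figure D4:**
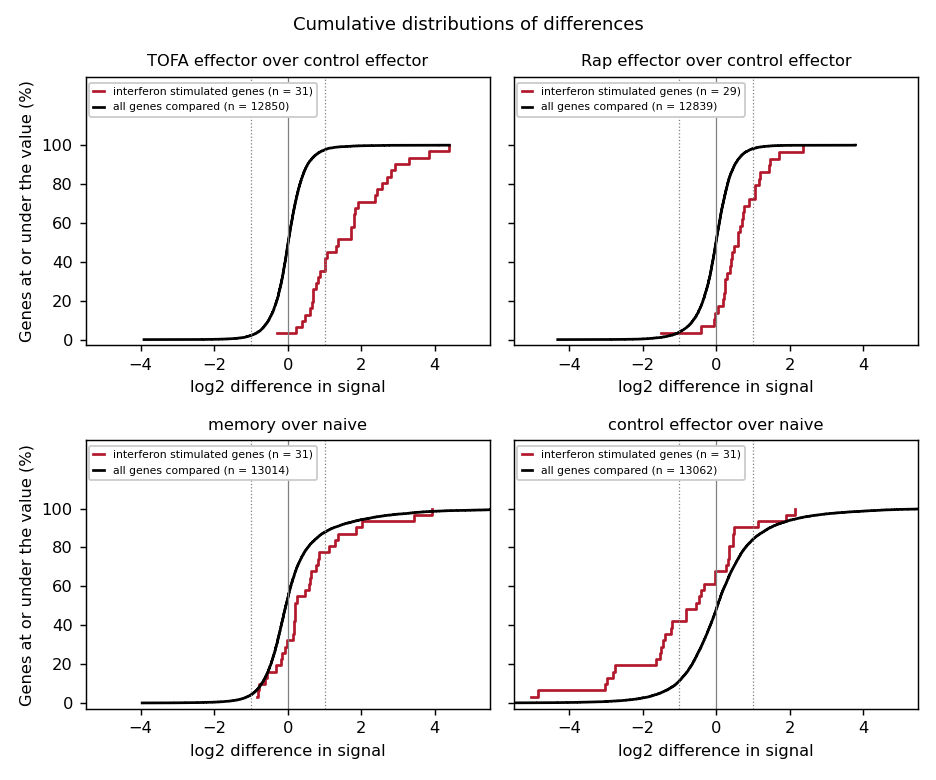
Cumulative share (%) of the interferon stimulated genes and of all genes compared, by log2 difference in signal, in 4 comparisons; dotted lines mark 2-fold. The curve of the interferon stimulated genes lies to the right of all genes for TOFA over control effector cells (median 1.37 against 0.01) and to the left for control effector over naive cells (median -0.55 against 0.03).

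Control effector cells had lower signals of many of the antiviral genes than naive cells. Of 31 genes compared, 13 were lower in control effector cells by 2-fold or more and 3 were higher, while 11.4% of all 13062 genes compared were lower and 15.9% higher. The median of the 31 was -0.55 on the log2 scale, against 0.03 over all genes. The 2 genes furthest lower were Rtp4 and Samd9l. Rtp4 read 78.10 in control effector cells against 2561 in naive cells (log2 difference -5.04), and Samd9l read 255.7 in control effector cells against 7359 in naive cells (-4.85).

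Ifit3 read 12.64, under the floor, in control effector cells and 349.5 in naive cells, at least 8.06-fold lower in control effector cells. Cmpk2 read 45.78 in control effector and 358.8 in naive cells (-2.97), Ifit1 read 81.43 in control effector and 572.5 in naive cells (-2.81), and Oas2 read 51.93 in control effector and 350.6 in naive cells (-2.76). The other 7 genes lower by the limit were Ddx58, Ifit2, Oasl1, Rsad2, Mx1, Usp18 and Xaf1, with log2 differences from -1.64 to -1.20. Of these, Oasl1, Rsad2 and Mx1, whose difference is a bound, lost the 2-fold call in a setting. Other probe sets of the antiviral genes gave the same direction in 15 of 19 cases. The signals of B cell markers were also lower, summing to 2025 in control effector and 32991 in naive cells, and neutrophil markers summed to 671.8 in control effector and 5607 in naive cells; their part in these differences was not tested.

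The 3 genes higher in control effector cells were sensors and a nuclease. Eif2ak2 read 481.5 in control effector and 108.2 in naive cells (4.45-fold). Dhx58 read 795.8 in control effector and 214.6 in naive cells (3.71-fold). Isg20 read 1581 in control effector and 718.6 in naive cells (2.20-fold). The antiviral genes thus lay on both sides of naive cells, with more of them lower.

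TOFA effector signals were above naive ones for most of the genes. This held for 24 of the 32, against 47.8% of all genes. The TOFA array was at least 2-fold above the naive array for 12 genes (14.01% of all genes) and at least 2-fold below it for Samd9l alone (8.89% of all genes). The 12 were Bst2, Dhx58, Eif2ak2, Ifih1, Isg20, Mx1, Mx2, Oas3, Stat2, Usp18, Xaf1 and Zbp1. Rtp4 read 1641 in TOFA effector and 2561 in naive cells, and Ifit1 read 478.8 in TOFA effector and 572.5 in naive cells, so that these genes lay within 2-fold of the naive array.

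Memory cells had signals of the antiviral genes near those of naive cells, apart from a few. Of 31 genes compared, 7 were at least 2-fold higher and 0 at least 2-fold lower in memory cells, while 12.3% of all 13014 genes compared were higher and 4.13% lower. The median was 0.21 on the log2 scale, against -0.05 over all genes. The 7 were Rsad2, Oas1a, Lgals3bp, Mx1, Dhx58, Eif2ak2 and Ifih1. Of these, Dhx58, Eif2ak2 and Ifih1 lost the 2-fold call in a setting. Other probe sets of the antiviral genes gave the same direction in 14 of 20 cases.

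Rsad2 read 2641 in memory cells against 173.0 in naive cells (15.3-fold), and between 63.47 and 210.5 on the effector arrays. Oas1a read 477.8 in memory cells against 44.18 in naive cells (10.8-fold), and was under the floor on the effector arrays. Lgals3bp read 2714 in memory cells against 674.6 in naive cells (4.02-fold). All 3 were highest on the array whose macrophage markers summed to 86205, against 1484 in naive cells; the part of those cells was not tested.

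Against control effector cells, 14 of 31 genes were at least 2-fold higher in memory cells and 1, Zbp1, was at least 2-fold lower, while 14.2% of all 13239 genes compared were higher and 14.1% lower. The median of the 31 was 0.81 on the log2 scale, against -0.03 over all genes. Rtp4 read 4385 in memory and 78.10 in control effector cells (56.1-fold), and Samd9l read 6652 in memory and 255.7 in control effector cells (26.0-fold). Zbp1 read 734.7 in memory and 1518 in control effector cells (log2 difference -1.05), and it was not past 2-fold with the values as deposited or with the mean of a gene's probe sets. The comparisons that share the control effector array or the naive array are not independent of each other.

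**Figure D5:**
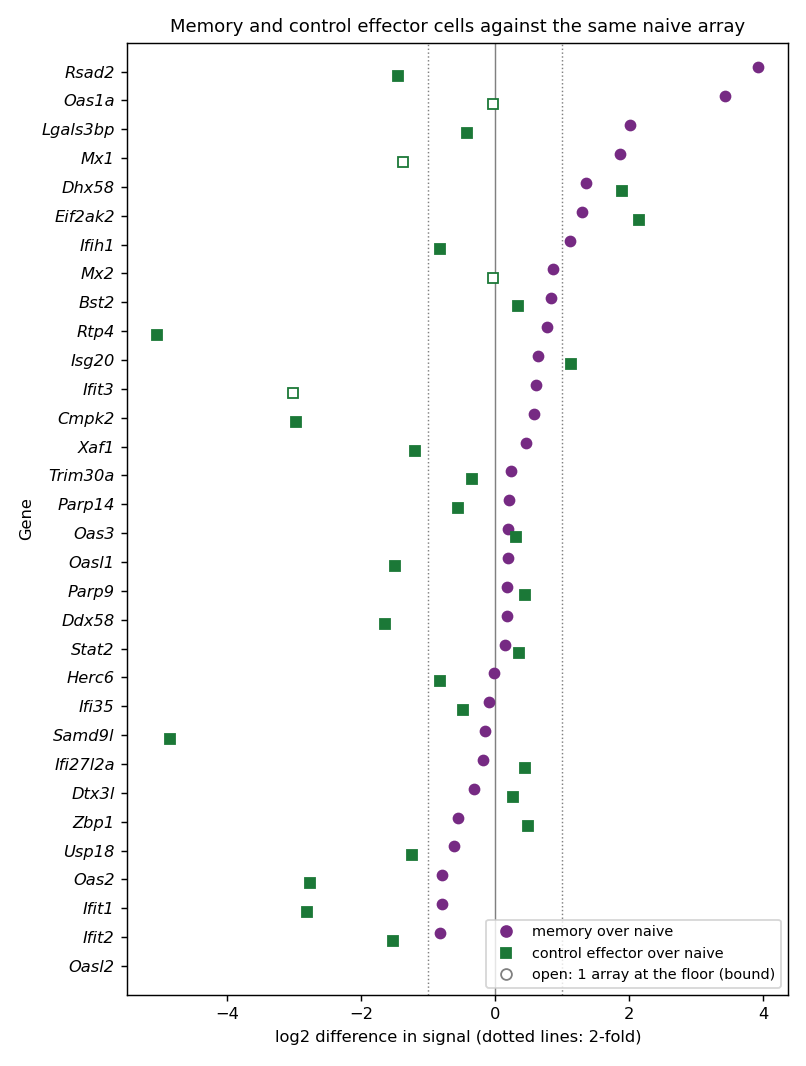
Log2 difference in signal of each gene in memory cells and in control effector cells, each against the same naive array; open symbols are bounds against an array at the floor, dotted lines mark 2-fold, and Oasl2 was under the floor on all 3 arrays and has no point. Control effector points reach -5.04 (Rtp4), and memory points reach 3.93 (Rsad2).

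The other genes of the pathway were described from 4 lists, which share some genes. Of 46 further interferon stimulated genes measured, 44 could be compared between TOFA and control effector cells, 17 were at least 2-fold higher in TOFA effector cells and 1 lower, with a median of 0.70, beside 2.47% and 2.14% of all genes. In Rap effector cells 6 of 42 were higher and 0 lower, with a median of 0.44, beside 1.79% and 3.91% of all genes. Ddx60, a helicase, read 420.8 in TOFA, 166.3 in Rap and 67.07 in control effector cells. Parp12, an ADP-ribosyltransferase, read 685.6 in TOFA, 283.6 in Rap and 124.7 in control effector cells. The 1 lower gene was Ifitm1, a membrane protein that blocks viral entry, with 191.5 in TOFA, 404.6 in Rap and 535.3 in control effector cells.

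In control effector cells against naive cells, 23 of 43 of these further genes were at least 2-fold lower and 6 higher, with a median of -1.03, beside 11.4% and 15.9% of all genes; the share higher was near that of all genes. The entry inhibitors went the other way: Ifitm2 read 1907 in control effector and 77.43 in naive cells, and Ifitm3 read 3184 in control effector and 263.8 in naive cells. Ifitm1 read 535.3 in control effector and 184.2 in naive cells.

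The receptor and signal genes differed less. Of 11 measured, 0 were past 2-fold in TOFA or in Rap effector cells against control effector cells, with medians of 0.00 and 0.04. Of all genes, 2.47% were higher and 2.14% lower in TOFA effector cells, and 1.79% and 3.91% in Rap effector cells. With such shares, 0 of 11 does not set this list apart from all genes. Ifnar1 read 1197 in TOFA, 1205 in Rap and 1174 in control effector cells. Ifnar2 read 1259 in TOFA, 1307 in Rap and 975.2 in control effector cells. Irf9, the DNA-binding subunit of the complex, read 1507 in TOFA, 1266 in Rap and 964.0 in control effector cells. Both receptor chains were above the floor on all 5 arrays.

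Irf7, the transcription factor that amplifies interferon production and is itself interferon induced, read 594.5 in TOFA, 337.7 in Rap and 154.8 in control effector cells, with log2 differences of 1.94 and 1.13 against control effector cells. The interferon genes themselves were dim. Ifnb1 read 40.97 in TOFA, 61.54 in Rap, 15.16 in memory, 51.54 in control effector and 36.72 in naive cells, and Ifna1, Ifna2 and Ifna4 reached at most 61.06. Of the list of interferon genes and nucleic acid sensing, Irf7 alone was past 2-fold in TOFA effector and in Rap effector cells, of 13 genes compared in each. Beside it, 2.47% of all genes were higher in TOFA effector cells and 1.79% in Rap effector cells. Irf7 is also on the list of further interferon stimulated genes and was counted as higher there too.

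Ifng, the gene of type II interferon, was highest in control effector cells. It read 2301 in TOFA, 980.1 in Rap and 4108 in control effector cells, with log2 differences of -0.84 and -2.07 against control effector cells. Of the 12 genes of the IFN-γ axis, 1 was at least 2-fold higher in TOFA effector cells, Cxcl10, an interferon-induced chemokine, beside 2.47% of all genes. In Rap effector cells 2 were higher and 1 lower, beside 1.79% and 3.91% of all genes. Cxcl10 read 267.9 in TOFA, 122.9 in Rap and 34.46, under the floor, in control effector cells. Irf1 read 5314 in TOFA, 6051 in Rap and 3471 in control effector cells. Between TOFA and Rap effector cells Ifng was higher in TOFA effector cells, by 1.23 on the log2 scale.

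Genes with the response element in their window could be set beside genes without it. Of the 11 measured genes with the element, 10 were compared between TOFA and control effector cells, and 8 were at least 2-fold higher in TOFA effector cells (median 1.55). Of the 11 whose window lacked it, 6 of 11 were higher (median 1), beside 2.47% of all genes. The 10 measured genes with no window could not be classed, and 6 of these 10 were higher (median 1.48). In Rap effector cells 1 of 10 genes with the element was at least 2-fold higher (median 0.23), and 4 of 10 without it (median 0.73), beside 1.79% of all genes. Of the genes with no window, 3 of 9 were higher and 1 lower (median 0.70). Ifit1, Ifit3, Bst2 and Rsad2, whose sequences are printed above, belong to the genes with the element that were past 2-fold in TOFA effector cells. In Rap effector cells Ifit1, Bst2 and Rsad2 were not past it. For Ifit3 this was not settled, since its signal of 56.15 in Rap effector cells stood against 12.64, under the floor, in control effector cells. Its log2 difference of 0.37 is thus a bound, and it ran from 0.24 to 2.03 under the alternatives. Samd9l and Xaf1, without the element in this window, were past 2-fold in both under all 6 alternatives; Oas3, with it, and Cmpk2, without it, were past it in both but lost the call in Rap effector cells in a setting, as Rsad2 did in TOFA effector cells.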

How the data were processed

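The data were 5 Affymetrix arrays, 1 per group. The deposited table holds linear signal intensity per probe set, which per the submitters' processing notes the authors made with GCOS and Affymetrix Expression Console (versions not given in the sources used here); every array had the same trimmed mean, 500.003, which shows a scaling to a common target. The intensity values were quantile-normalised here (Python 3.11.15, numpy 2.4.6, pandas 2.3.3), after 64 control probe sets were left out. Symbols came from a 2016 platform annotation: 34945 probe sets had 1 symbol, 932 several and 9160 none. A gene was represented by its brightest probe set, by mean log2 signal over the arrays. Signals were raised to a floor, the 40th percentile, before log2 differences were taken. With 1 array per group no test or error could be given, and the arrays' number limits the precision. The script was tested on simulated data. For each summary value 6 alternatives were tried. Any of the 34 genes could be named; of the related lists, genes at least 2-fold apart in TOFA or Rap over control effector or control effector over naive cells, and Ifnar1, Ifnar2, Irf9, Irf7, Irf1 and Ifng whatever their values. Ifnb1, Ifna1, Ifna2, Ifna4, Cd4 and the markers C1qa, Adgre1, Mpeg1, Cox6a2, Klk1, Pacsin1, Tcf4, Spib, Ccr9 and H2-Ab1 fall outside it and were named after their values were seen. The genes and lists were chosen with earlier results of these data known.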

Additional observations from a re-analysis of the deposited data

How the results depend on the processing

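For 19 summary values 6 alternatives were run: the values as deposited, a floor at the 20th or 60th percentile, the mean of a gene's probe sets, no probe sets with names ending in _x_at or _s_at, and an added constant in place of the floor. Of these 114 values, 110 stayed within 1.5 times of the reported count or, for medians, within 1.5-fold of the reported median, and 0 changed direction. The 4 others were counts. Genes at least 2-fold higher in Rap over control effector cells numbered 8 of 29 as reported, beside 1.79% of all genes. They numbered 4 of 22 with the floor at the 60th percentile, beside 0.772%, and 4 of 32 with the added constant, beside 1%. Genes at least 2-fold lower in memory over control effector cells numbered 0 with the values as deposited and 0 with the mean of probe sets, against 1. In TOFA over control effector cells the count of genes at least 2-fold higher ranged from 17 to 21. With the floor at the 60th percentile it was 17 of 30, beside 1.49% of all genes. With the floor at the 20th percentile it was 21 of 32, beside 7.35% of all genes. Of the 20 reported, 14 were past 2-fold in every setting. The 6 that were not were Oasl1, Oas2, Rsad2, Parp14, Trim30a and Lgals3bp; in Rap effector cells they were Mx1, Oas2, Oas3, Cmpk2 and Lgals3bp. The values as deposited put the median of all genes in memory over control effector cells at 0.17, against -0.03, with 18.2% of genes higher and 10.5% lower, and in memory over naive cells gave 14.6% higher and 2.52% lower. No paired analysis was possible because each group had 1 array. Control effector signals at or near the floor limit Rtp4, Mx1, Mx2, Ifit3, Cmpk2, Oas2, Oasl1, Oasl2, Oas1a and Rsad2.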

Other observations

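Among the further interferon stimulated genes, 6 Schlafen genes were measured, a family of which Slfn2 is known for a role in T cell quiescence. All 6 were higher by 2-fold or more in TOFA than in control effector cells, beside 2.47% of all genes. The 6 were singled out after their values were seen. Slfn2 read 4114 in TOFA, 2163 in Rap, 8939 in memory, 1954 in control effector and 10928 in naive cells. Slfn5 read 253.5 in TOFA, 81.39 in Rap, 1482 in memory, 65.00 in control effector and 1286 in naive cells. Slfn8 read 1325 in TOFA, 950.1 in Rap, 2646 in memory, 465.8 in control effector and 3718 in naive cells, and was past 2-fold in Rap effector cells too. Slfn3 ran in another order, with 189.0 in TOFA, 146.1 in Rap, 19.67 in memory, 79.36 in control effector and 48.63 in naive cells.

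Ifit1bl1, a relative of Ifit1, read 265.7 in TOFA, 94.21 in Rap, 1975 in memory, 17.49, under the floor, in control effector and 2288 in naive cells. Cd69, an early activation marker of T cells that type I interferon also induces, read 4281 in TOFA, 2351 in Rap, 1218 in memory, 1614 in control effector and 3837 in naive cells.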
